A study of Arabidopsis thaliana with 18 samples.

Results

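Transcripts of 41 genes for small signalling peptides were followed in roots of Arabidopsis thaliana, on 18 arrays in 6 groups of 3. The genes are those whose symbol in the platform's probe and gene table begins with CLE, RALF, RALFL, DVL, RTFL, IDL, GLV, RGF, PSK, EPF, EPFL or CEP followed by digits, out of 16722 features named for exactly 1 gene and 38408 features in all. They comprise 16 CLE genes, 18 RALFL genes, 4 RTFL genes and DVL21, and 2 IDL genes. No probe set named for exactly 1 gene was found for the GLV, RGF, PSK, EPF, EPFL and CEP symbols, and these families were not analysed here. The reference annotation TAIR10.1 lists 112 symbols of this form, among them 30 CLE and 32 RALFL symbols. Each of the 41 genes has 1 probe set, and none shares its values with another feature.

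All groups carried TMO5-GR, a fusion of the vascular transcription factor TMO5 to the glucocorticoid receptor, which dexamethasone (DEX) activates. Seedlings of all groups were 4 days old. In whole root tips (Col-0 ecotype) the construct was pRPS5A-TMO5-GR, whose promoter is active in dividing cells. Treatment lasted 1 h, with DEX plus cycloheximide, an inhibitor of protein synthesis (root DEX+CHX), with cycloheximide (root CHX), with DEX (root DEX), or on MS medium alone (root MS). In the other experiment (C24 ecotype) the enhancer trap line J0571, known for activity in ground tissue, drove pUAS-TMO5-GR, and the cells carrying GFP were taken by sorting from protoplasts of roots after 2 h with DEX (J0571 DEX) or on MS medium (J0571 control). No group lacks the construct, so effects of DEX itself and of the activated fusion cannot be told apart. In such bulk RNA, fewer cells of a type and less RNA per cell cannot be told apart either.

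CLE genes encode secreted precursors that are cut to short ligands and read by receptor kinases with leucine-rich repeats, and in roots they act on stem cells, phloem and vascular division. CLE41 and CLE44 encode the same mature peptide, TDIF, which phloem cells release and which procambial cells perceive through the receptor PXY. RALF peptides are cysteine-rich ligands of receptor kinases of the FERONIA type and raise the pH outside the cell. IDL genes are relatives of IDA, the ligand of HAESA-type receptors in organ abscission and lateral root emergence. RTFL and DVL genes encode small polypeptides found at the plasma membrane, and their overproduction alters organ shape.

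Values are log2 signals as deposited. Correlations across features between arrays of the same group lay at r of 0.982 to 0.992. The median log2 signal of the arrays ran from 4.50 to 4.87 and their lower quartile from 2.55 to 2.90. Of the 41 genes, 8 lay above the array's median on all 18 arrays, namely CLE14, CLE16, CLE25, CLE41, RALFL22, RALFL31, RALFL32 and RALFL34. Another 19 never did, with signals from 1.76 to 4.12, and 3 of these (RALFL20, RALFL26 and RALFL30) lay below the lower quartile on every array. Signals that low are not shown to exceed background, and changes from them may be understated. The median SD over the 3 arrays of a group ran from 0.16 to 0.18 across these genes. Whole root tips and sorted cells differed in known markers. All 4 ground tissue markers named here (of 9 listed) were higher in J0571 control than in root MS. The stele marker PHV (1 of 10 listed) and the root hair genes EXPA7 and EXPA18 (2 of 6 listed for epidermis and root hair) were lower. None of the 3 listed root cap markers has a probe set named for exactly 1 gene. The mean of the 4 ground tissue markers was 8.14 to 8.58 on the J0571 control arrays, against 6.55 to 6.82 on the root MS arrays. Of these markers AT1G09750 differed most, by 3.99, and JKD, EN7 and CO2 differed by 0.87, 1.15 and 0.73. PHV was at 5.86 to 5.90 in J0571 control, against 7.05 to 7.32 in root MS, and the mean of the root hair genes at 6.95 to 7.57, against 9.57 to 9.68 in root MS.

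**Figure D1:**
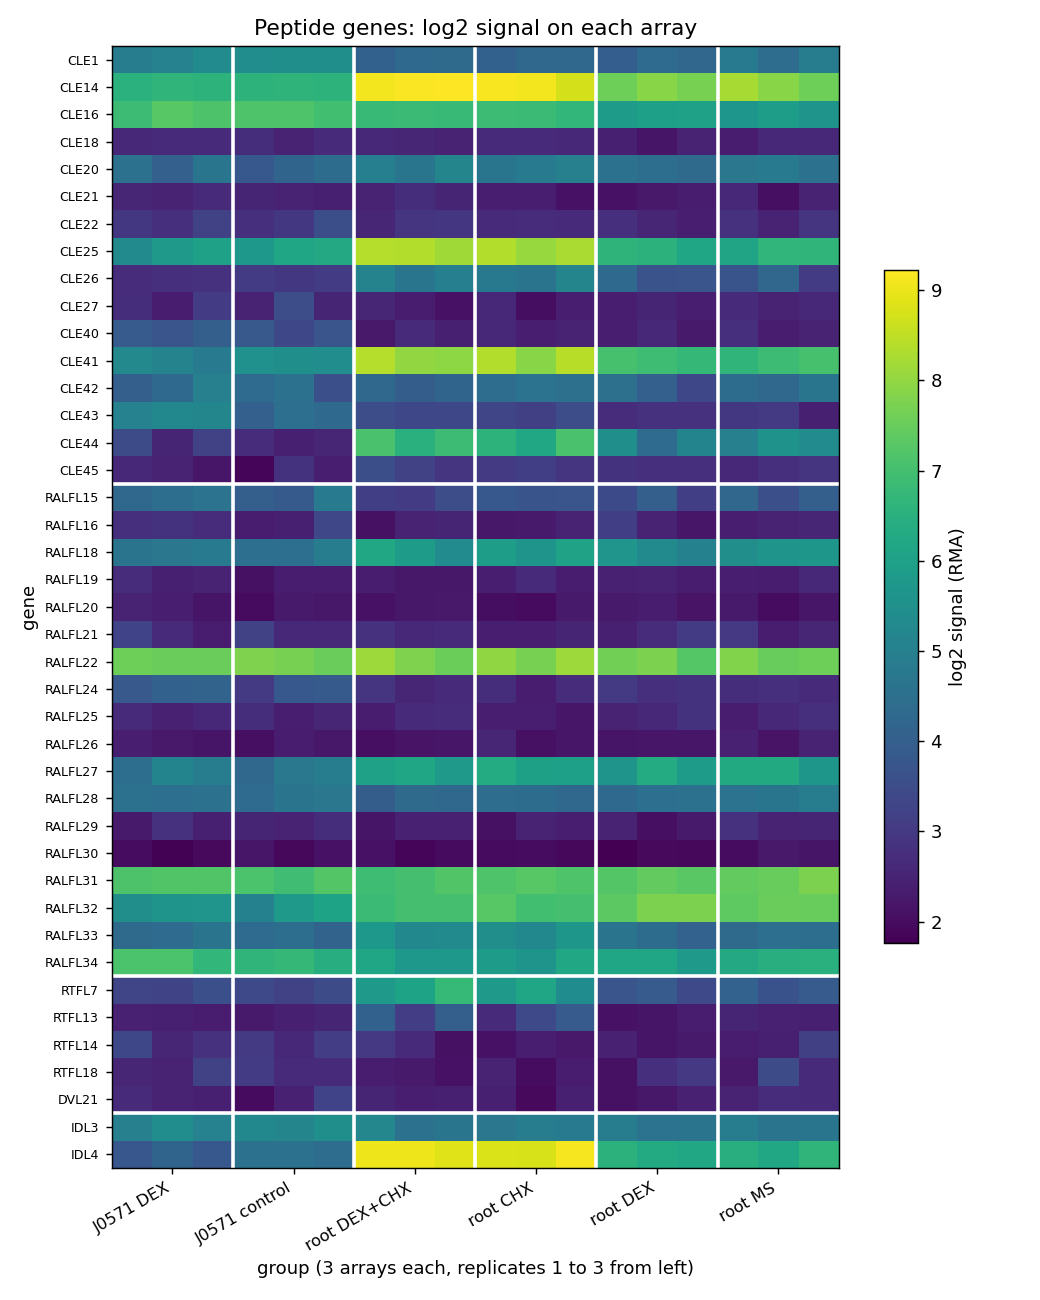
Heat map of the log2 signal of the 41 peptide genes (rows, in blocks of CLE, RALFL, RTFL with DVL, and IDL genes) on the 18 arrays (columns, 3 per group). Colour runs from dark (lowest, 1.76) to yellow (highest, 9.22), and CLE14, CLE25, CLE41 and IDL4 stand out as brighter in the root DEX+CHX and root CHX columns than in the root DEX and root MS columns.

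Cycloheximide changed more of these genes than any other treatment here, as it did over all features. Against root MS, root CHX had 10 of the 41 genes higher and 4 lower (limma, Benjamini-Hochberg adjusted p under 0.05), while 10.4% of all features were called higher and 19.7% lower. The members' shares are 24.4% and 9.76%. With DEX present in both groups, root DEX+CHX against root DEX, 12 were higher and 1 lower, which is 29.3% and 2.44%, beside 11.6% and 22.1% of all features. These comparisons share no arrays, but their tests share the estimate of spread, taken from all root tip arrays. The genes higher in both numbered 10 and the gene lower in both was RALFL32, while 25 genes were called in neither. The members' median log2 change was -0.03 in root CHX against root MS and 0.14 in root DEX+CHX against root DEX, beside -0.13 in each over all features. Among features named for exactly 1 gene, 13.3% were higher and 12.4% lower in root CHX against root MS, and 15.1% higher and 13.9% lower in root DEX+CHX against root DEX. Arrays with cycloheximide had lower medians, and setting all array medians equal moved the median change of all features by 0.17 and 0.22. The split was then 11 higher and 0 lower in root CHX against root MS, and 18 higher and 1 lower in root DEX+CHX against root DEX. Quantile normalization again gave 13 higher and 2 lower, and 16 higher and 1 lower. Both settings moved the median change of all features upward. Shares of all features called under them are not given here, so these splits have no background beside them.

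The 16 CLE genes gave 7 higher and 1 lower in root CHX, and 8 higher and 0 lower in root DEX+CHX. The shares of all features were 10.4% higher and 19.7% lower in root CHX, and 11.6% and 22.1% in root DEX+CHX. Both TDIF genes were among the CLE genes that rose. CLE41 had log2 signals of 8.38, 8.02 and 7.95 in root DEX+CHX, against 7.04, 6.90 and 6.72 in root DEX, and 8.37, 7.89 and 8.43 in root CHX, against 6.65, 6.86 and 7.04 in root MS. Every array with cycloheximide lay above every root tip array without it. The log2 change was 1.23 (SE 0.17, adjusted p = 0.000375) with DEX present and 1.38 (SE 0.17, adjusted p = 0.00021) without DEX, where it amounted to a 2.6-fold rise. CLE44 behaved likewise, at 7.07, 6.48 and 6.86 in root DEX+CHX, against 5.49, 4.38 and 5.11 in root DEX, and 6.59, 6.24 and 7.09 in root CHX, against 5.0, 5.55 and 5.37 in root MS. Here too the arrays with and without cycloheximide did not overlap, though root DEX replicate 2 lay low, at 4.38. Its changes were 1.81 (SE 0.30, adjusted p = 0.00102) and 1.34 (SE 0.30, adjusted p = 0.00711). CLE42 encodes a peptide closely related to TDIF and was called in neither comparison. It stood at 4.27, 3.95 and 4.16 in root DEX+CHX, against 4.51, 4.04 and 3.39 in root DEX, and at 4.41, 4.59 and 4.52 in root CHX, against 4.41, 4.25 and 4.66 in root MS, so the groups overlapped in both comparisons. Its change of 0.07 (SE 0.23) in root CHX had a 95% interval of -0.45 to 0.59.

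The largest change of a CLE gene with cycloheximide was that of CLE25, known from signalling between root and shoot under dehydration and from phloem formation. It had 8.40, 8.35 and 8.15 in root DEX+CHX, against 6.61, 6.55 and 6.14 in root DEX, and 8.37, 8.06 and 8.27 in root CHX, against 6.11, 6.67 and 6.65 in root MS. The groups lay well apart, with changes of 1.87 (SE 0.18, adjusted p = 2.15e-05) and 1.76 (SE 0.18, adjusted p = 3.99e-05). CLE14 acts in the arrest of the root meristem under phosphate starvation. Its signals were 9.09, 9.19 and 9.22 in root DEX+CHX, against 7.56, 7.89 and 7.70 in root DEX, and 9.14, 9.08 and 8.75 in root CHX, against 8.23, 7.90 and 7.58 in root MS. CLE14 rose by 1.45 (SE 0.17) and 1.09 (SE 0.17) (adjusted p = 8.92e-05 and 0.000747), again without overlap between the groups. CLE16 had 6.79, 6.84 and 6.81 in root DEX+CHX, against 5.85, 5.98 and 6.03 in root DEX, and 6.87, 6.86 and 6.71 in root CHX, against 5.68, 5.93 and 5.62 in root MS. Its SD in root DEX+CHX, 0.02, was the lowest of these genes there, while in root MS it was 0.17, beside a median of 0.18. The changes of CLE16 were 0.86 (SE 0.10, adjusted p = 0.000103) and 1.07 (SE 0.10, adjusted p = 2.47e-05).

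CLE26, whose peptide suppresses protophloem formation when applied to roots, was nearer to the array median. It stood at 5.11, 4.66 and 4.97 in root DEX+CHX, against 4.32, 3.66 and 3.72 in root DEX, and at 4.79, 4.63 and 5.16 in root CHX, against 3.69, 4.22 and 3.09 in root MS. The root MS arrays of CLE26 were spread widely, but none reached the root CHX arrays, and the changes were 1.01 (SE 0.28, adjusted p = 0.0175) and 1.20 (SE 0.28, adjusted p = 0.00889). The first of these calls was lost without root DEX+CHX replicate 1 (adjusted p = 0.0612), root DEX replicate 2 (0.0620) or root DEX replicate 3 (0.0590). CLE43 was below the array median on all root tip arrays, at 3.51, 3.38 and 3.36 in root DEX+CHX, against 2.71, 2.83 and 2.84 in root DEX, and at 3.32, 3.16 and 3.51 in root CHX, against 2.98, 3.03 and 2.40 in root MS. Its rises of 0.63 (SE 0.16) and 0.53 (SE 0.16) passed (adjusted p = 0.0109 and 0.0287). The call in root CHX was lost without root CHX replicate 1 (adjusted p = 0.0691), root MS replicate 3 (0.0615, at a change of 0.33) or root CHX replicate 3 (0.101), when only the 6 arrays of the comparison were fitted (0.09997), and with the replicate number as a block (0.05002).

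CLE20 and CLE1 were called in 1 comparison each. CLE20, whose peptide inhibits root growth when applied, had 4.97, 4.66 and 5.14 in root DEX+CHX, against 4.55, 4.46 and 4.33 in root DEX, and 4.66, 4.87 and 5.0 in root CHX, against 4.70, 4.87 and 4.54 in root MS. It rose where DEX was present, by 0.47 (SE 0.14, adjusted p = 0.0261), and the change without DEX, 0.14 (SE 0.14, adjusted p = 0.509), did not pass. The call did not hold without root DEX+CHX replicate 1 (adjusted p = 0.0730), root DEX replicate 2 (0.0586), root DEX replicate 3 (0.0864) or root DEX+CHX replicate 3 (0.0967), nor with only the 6 arrays of the comparison (0.0539) or with the replicate block (0.0504). CLE1 is a gene of the group that responds to nitrogen supply and acts through the receptor CLV1 on lateral roots. CLE1 was at 4.06, 4.24 and 4.24 in root CHX, against 4.84, 4.42 and 4.92 in root MS, and at 4.08, 4.32 and 4.33 in root DEX+CHX, against 3.98, 4.37 and 4.22 in root DEX. It was lower in root CHX, at a change of -0.54 (SE 0.15) (adjusted p = 0.0192), and its change with DEX present was 0.05 (SE 0.15, adjusted p = 0.827). The call was lost with array medians equal (-0.37, adjusted p = 0.140), with quantile normalization again (-0.31, adjusted p = 0.190), and without root MS replicate 1 (0.0635), root CHX replicate 1 (0.0703) or root MS replicate 3 (0.0668). The difference between the responses with and without DEX, tested as an interaction, did not pass for CLE20 (0.33, SE 0.20, adjusted p = 0.999) or CLE1 (0.60, SE 0.21, adjusted p = 0.999).

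Among the 41 genes IDL4 had the largest change with cycloheximide in both comparisons. It had 9.04, 9.04 and 8.85 in root DEX+CHX, against 6.54, 6.33 and 6.20 in root DEX, and 8.80, 8.77 and 9.11 in root CHX, against 6.43, 6.23 and 6.66 in root MS. All cycloheximide arrays lay more than 2 log2 units above the other root tip arrays. The changes were 2.62 (SE 0.14, adjusted p = 3.62e-07) and 2.45 (SE 0.14, adjusted p = 6.39e-07), which without DEX is a 5.48-fold rise. IDL3, the other IDL gene, was at 5.22, 4.54 and 4.67 in root DEX+CHX, against 4.90, 4.60 and 4.62 in root DEX, and at 4.71, 4.93 and 4.81 in root CHX, against 4.90, 4.63 and 4.66 in root MS. Its groups overlapped, and its changes of 0.10 (SE 0.17) and 0.08 (SE 0.17) were not called.

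Of the 5 RTFL and DVL genes, RTFL7 (also DVL8) rose in both comparisons. RTFL7 had 5.78, 6.08 and 6.76 in root DEX+CHX, against 3.73, 3.91 and 3.41 in root DEX, and 5.76, 6.15 and 5.38 in root CHX, against 4.09, 3.63 and 3.89 in root MS. It was below the array median without cycloheximide and above it with cycloheximide, with changes of 2.53 (SE 0.27, adjusted p = 4.94e-05) and 1.89 (SE 0.27, adjusted p = 0.000449). RTFL13 lay below the array median on every array, at 4.07, 3.12 and 4.01 in root DEX+CHX, against 2.12, 2.18 and 2.34 in root DEX, and at 2.65, 3.42 and 3.91 in root CHX, against 2.52, 2.45 and 2.41 in root MS. The root CHX arrays of RTFL13 differed among themselves by over 1 log2 unit. It rose by 1.52 (SE 0.31) with DEX present (adjusted p = 0.00336), and the change of 0.87 (SE 0.31) without DEX did not pass (adjusted p = 0.0561). That second value passed without root CHX replicate 1 (1.20, adjusted p = 0.0103), with quantile normalization again (0.0194), with array medians equal (0.0295) and when only features of 1 gene were tested (0.0458). DVL21 is the next protein-coding gene beside RTFL13 in TAIR10.1. It was at 2.54, 2.38 and 2.42 in root DEX+CHX, against 2.08, 2.24 and 2.43 in root DEX, and its change of 0.19 (SE 0.14) was not called, but with array medians equal it was 0.41 and passed (adjusted p = 0.0466). RTFL14 and RTFL18 were not called either, with changes in root CHX of -0.38 (SE 0.25) and -0.52 (SE 0.31).

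The 18 RALFL genes gave 1 higher and 3 lower in root CHX, and 1 higher and 1 lower in root DEX+CHX. Over all features 10.4% were higher and 19.7% lower in root CHX, and 11.6% and 22.1% in root DEX+CHX. RALFL33, a ligand of FERONIA-type receptors studied in immunity, was the RALFL gene that rose. It had 5.73, 5.25 and 5.30 in root DEX+CHX, against 4.62, 4.41 and 4.10 in root DEX, and 5.44, 5.23 and 5.70 in root CHX, against 4.34, 4.48 and 4.47 in root MS. The groups did not overlap, and the changes were 1.05 (SE 0.17, adjusted p = 0.000995) and 1.03 (SE 0.17, adjusted p = 0.00138). RALFL32 fell in both, at 6.86, 7.03 and 7.01 in root DEX+CHX, against 7.34, 7.76 and 7.74 in root DEX, and 7.28, 6.96 and 7.01 in root CHX, against 7.38, 7.52 and 7.49 in root MS. The changes of RALFL32 were -0.65 (SE 0.13, adjusted p = 0.00331) and -0.38 (SE 0.13, adjusted p = 0.0492). RALFL31 and RALFL28 fell in root CHX. RALFL31 had 7.17, 7.29 and 7.17 in root CHX, against 7.44, 7.50 and 7.73 in root MS, a change of -0.35 (SE 0.11, adjusted p = 0.035). RALFL28 had 4.42, 4.38 and 4.25 in root CHX, against 4.60, 4.67 and 4.89 in root MS, a change of -0.37 (SE 0.12, adjusted p = 0.0467). With DEX present the changes were -0.27 (SE 0.11, adjusted p = 0.084) for RALFL31 and -0.26 (SE 0.12, adjusted p = 0.137) for RALFL28, and the interactions, 0.08 (SE 0.15, adjusted p = 0.999) and 0.11 (SE 0.18, adjusted p = 0.999), did not pass. These 3 falls in root CHX were small and none passed with array medians equal (adjusted p = 0.316 for RALFL32, 0.343 for RALFL31 and 0.348 for RALFL28) or with only the 6 arrays of the comparison (0.0624, 0.0701 and 0.0645). Leaving out 1 array ended the RALFL32 call for each of the root MS arrays and for root CHX replicates 2 and 3 (adjusted p = 0.0657 to 0.148). It ended the RALFL31 call (0.0514 to 0.115) and the RALFL28 call (0.0737 to 0.147) for each of the root CHX arrays and for root MS replicates 2 and 3. RALFL28 also missed with trend and robust options (0.0818) and with quantile normalization again (0.393), and RALFL32 with array weights (0.0726) and with the replicate block (0.0705). The fall of RALFL32 in root DEX+CHX passed in every alternative run.

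RALFL22, a FERONIA ligand studied in salt tolerance and the RALFL gene with the highest mean signal of its probe set, was not called. It was at 8.14, 7.78 and 7.55 in root DEX+CHX, against 7.64, 7.74 and 7.26 in root DEX, and at 7.98, 7.69 and 8.13 in root CHX, against 7.81, 7.47 and 7.58 in root MS. Its change in root CHX was 0.31 (SE 0.18), with a 95% interval of -0.10 to 0.72. RALFL34, which acts in lateral root initiation through the receptor kinase THESEUS1, was at 5.84, 5.62 and 6.21 in root CHX, against 6.28, 6.47 and 6.49 in root MS. Every root CHX array of RALFL34 lay below every root MS array, and its change of -0.52 (SE 0.18) missed the threshold (adjusted p = 0.051). It passed at -0.68 without root CHX replicate 3 (adjusted p = 0.0215), and also with only features above the median (0.0286), trend and robust options (0.0435), array weights (0.0386), identical features once (0.0478) or only features of 1 gene (0.0430). Among the 25 genes called in neither comparison the changes ran from -0.52 to 0.31 in root CHX and from -0.37 to 0.48 in root DEX+CHX, and 18 of these genes never exceeded the array median. Without root DEX+CHX replicate 3, CLE45 (0.58, adjusted p = 0.00873), RALFL18 (0.71, adjusted p = 0.0254) and RALFL31 (-0.35, adjusted p = 0.0453) also passed in root DEX+CHX against root DEX. CLE45 passed there too with quantile normalization again (0.70, adjusted p = 0.00574), array medians equal (0.63, adjusted p = 0.00763), array weights (0.0458) and only features of 1 gene (0.0496), RALFL18 with array medians equal (0.0322), and RALFL31 with only features above the median (0.0436). Under quantile normalization again, CLE18, CLE21 and CLE22 passed as well, and with array medians equal CLE18, CLE21 and RALFL30. In root CHX against root MS, CLE45 (0.0256) and CLE18 (0.0283) passed with quantile normalization again.

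**Figure D2:**
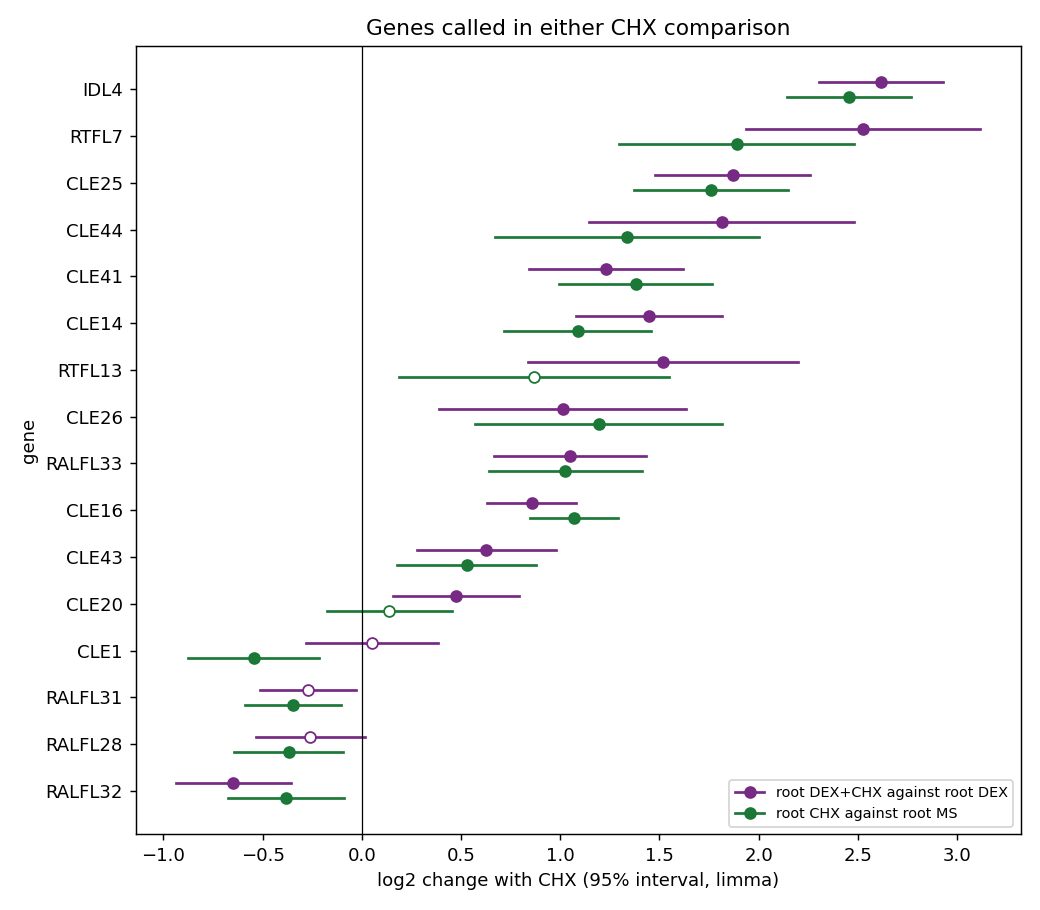
Log2 change with cycloheximide, with 95% intervals from limma, for the 16 genes called in either comparison (purple, root DEX+CHX against root DEX; green, root CHX against root MS; filled circles passed the adjusted threshold). IDL4, RTFL7 and CLE25 lie farthest to the right in both, and RALFL32 is the gene left of 0 with filled circles in both.

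**Figure D3:**
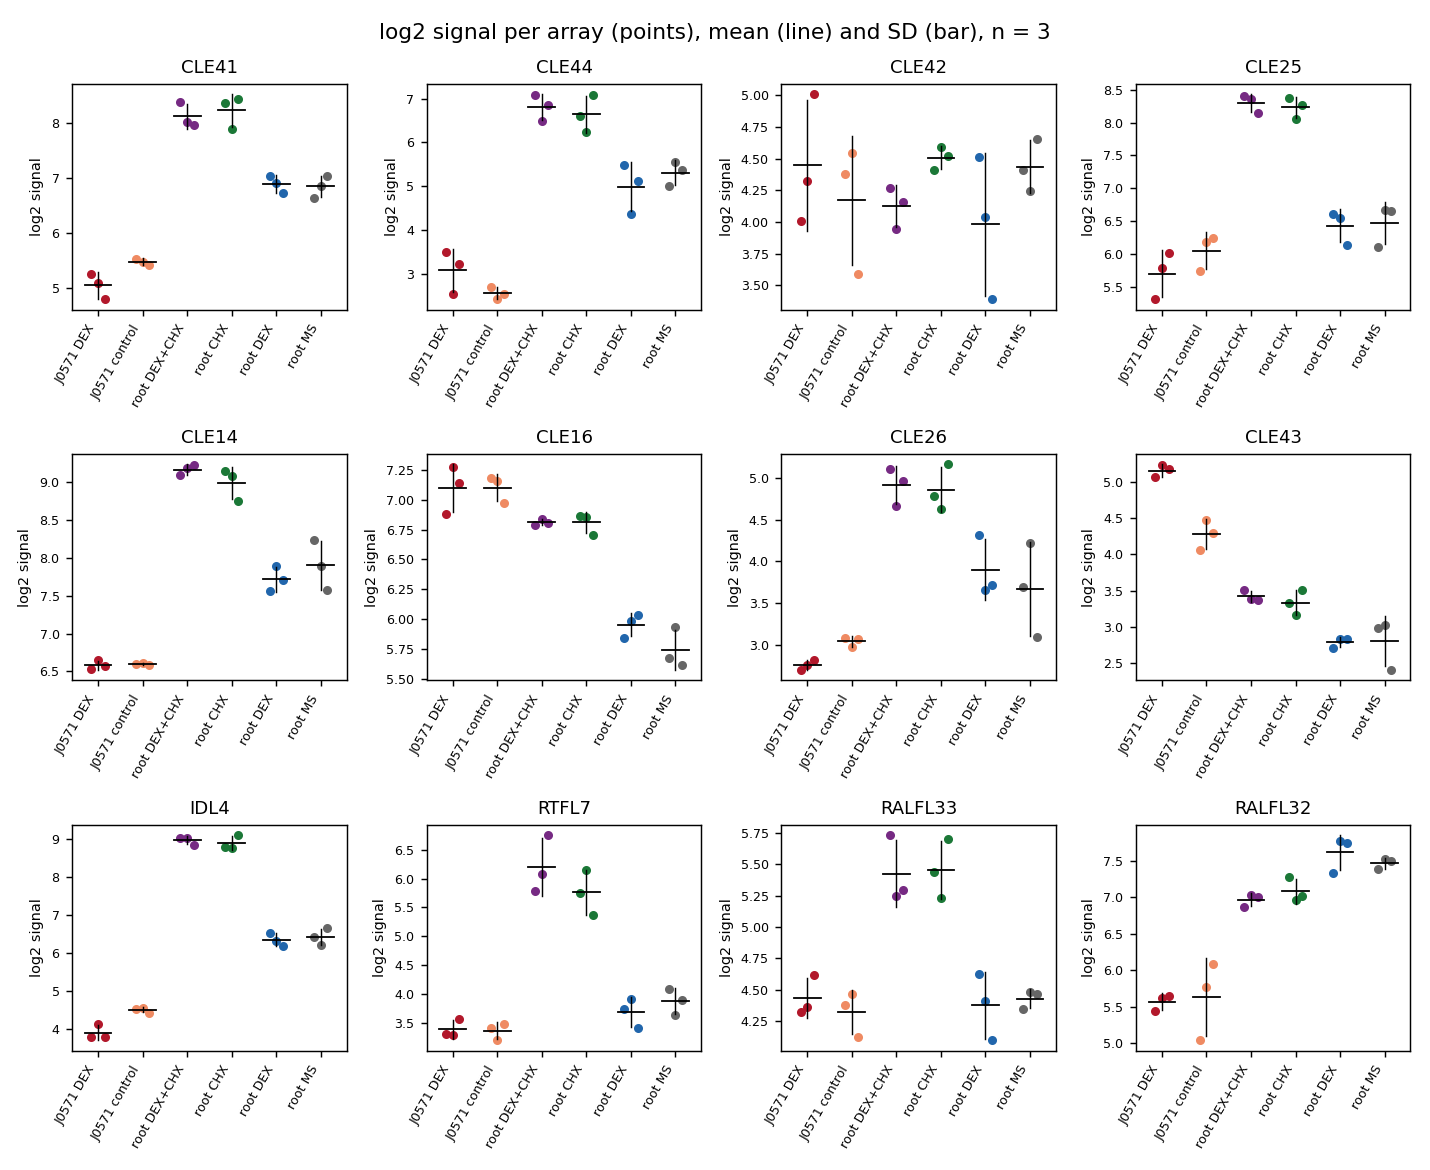
Log2 signal of 12 genes on each array (points) with mean and SD (n = 3) in the 6 groups, with a separate vertical scale for each gene. CLE41, CLE44, CLE25, CLE14, CLE16, CLE26, CLE43, IDL4, RTFL7 and RALFL33 are higher on all 6 root tip arrays with cycloheximide than on the 6 without, and RALFL32 is lower on all 6.

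The response to cycloheximide was also compared between root tips with and without DEX. In this interaction test limma called 0 of the 41 genes, as it did 0% of all features. At an unadjusted p under 0.05 were 2 of the 41 genes, beside 1684 of the 38408 features. The smallest adjusted p among the 41 genes was 0.999, and their interaction values ran from -0.27 to 0.66. Their median was 0.11, beside -0.01 over all features. The median 95% half-interval was 0.48.

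Receptors, coreceptors, maturation enzymes and downstream genes of these peptides, and early stress genes, were read beside them, from a list of 58 genes of which 20 have a probe set named for exactly 1 gene. In both cycloheximide comparisons 3 of the 20 were higher and 2 lower. Over all features 10.4% were called higher and 19.7% lower in root CHX, and 11.6% and 22.1% in root DEX+CHX. Among features named for exactly 1 gene the shares were 13.3% and 12.4%, and 15.1% and 13.9%. THE1, a receptor of RALFL34, rose to 8.23, 8.37 and 8.61 in root CHX, against 7.56, 7.36 and 7.50 in root MS, a change of 0.93 (SE 0.11, adjusted p = 0.000136). It also rose by 0.83 (SE 0.11, adjusted p = 0.000239) in root DEX+CHX. PXL1, a relative of the TDIF receptor PXY, rose by 0.50 (SE 0.13, adjusted p = 0.0161) in root CHX, its change where DEX was present was 0.32 (SE 0.13, adjusted p = 0.0885), and the difference did not pass as an interaction (-0.18, SE 0.19, adjusted p = 0.999). RITF1, a transcription factor induced by RGF peptide signalling, was called in root DEX+CHX, at 0.44 (SE 0.11, adjusted p = 0.0107), and not in root CHX, at 0.22 (SE 0.11, adjusted p = 0.157), with an interaction of 0.22 (SE 0.16, adjusted p = 0.999). S1P, the subtilase that cuts RALF23 precursor, was lower in both, with changes of -0.51 (SE 0.14, adjusted p = 0.0197) in root CHX and -0.55 (SE 0.14, adjusted p = 0.0119) in root DEX+CHX. PSY1R, the receptor named for the peptide PSY1, was likewise lower, with changes of -0.51 (SE 0.14, adjusted p = 0.0181) and -0.40 (SE 0.14, adjusted p = 0.0456). STZ, the 1 of 5 listed early stress genes with a probe set named for exactly 1 gene, stood at 11.96, 11.89 and 12.08 in root CHX, against 8.26, 9.01 and 9.28 in root MS. It rose by 3.13 (SE 0.29, adjusted p = 2.18e-05) and by 3.35 (SE 0.29, adjusted p = 1.11e-05), and its part in the peptide genes' changes was not tested. No probe set named for exactly 1 gene was found for PXY, CLV1, the BAM receptors or the HAESA receptors, which were not analysed here.

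No peptide gene passed the threshold with DEX in the 3 comparisons that tested it, and CLE43 in sorted cells had the smallest adjusted p. In root DEX against root MS limma called 0 of the 41 and 0% of all features. At an unadjusted p under 0.05 were 4 of the 41 genes, beside 2368 of the 38408 features. The groups did not overlap for 8 genes (19.5%), 1 higher and 7 lower, beside 9.26% of all features. The members' median change was -0.15, beside 0.00 over all features, and 31 of the 41 had changes below 0. The lowest was CLE1, with 3.98, 4.37 and 4.22 in root DEX, against 4.84, 4.42 and 4.92 in root MS. Each root DEX array of CLE1 lay below each root MS array, and the change was -0.54 (SE 0.15, adjusted p = 0.554). The fall of CLE1 in root CHX was measured against the same root MS arrays, so it is not separate from this one. The means of CLE1 were 4.73 in root MS, 4.19 in root DEX, 4.18 in root CHX and 4.24 in root DEX+CHX. RALFL30 (-0.28, SE 0.10, adjusted p = 0.716) and DVL21 (-0.38, SE 0.14, adjusted p = 0.731) came next by p. RALFL30 had 1.76, 1.95 and 1.93 in root DEX, against 2.02, 2.26 and 2.19 in root MS, all below the arrays' lower quartile. DVL21 had 2.08, 2.24 and 2.43 in root DEX, against 2.50, 2.72 and 2.66 in root MS, also without overlap and below the lower quartile of the same array. The TDIF genes were not called, CLE41 at 0.04 (SE 0.17) and CLE44 at -0.32 (SE 0.30), with 95% intervals of -0.35 to 0.43 and -0.98 to 0.35.

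In root DEX+CHX against root CHX limma again called 0 of the 41 and 0% of all features. At an unadjusted p under 0.05 was 1 of the 41 genes, beside 1189 of the 38408 features. The groups did not overlap for 6 genes (14.6%), beside 9.54% of all features. RALFL15 led by p, with 3.14, 3.08 and 3.52 in root DEX+CHX, against 3.81, 3.70 and 3.73 in root CHX. Its arrays did not overlap, and the change was -0.50 (SE 0.23, adjusted p = 1.00). CLE21, at 2.50, 2.73 and 2.52 in root DEX+CHX, against 2.38, 2.40 and 2.12 in root CHX, had a change of 0.29 (SE 0.14, adjusted p = 1.00). RALFL19, a gene known from pollen tube integrity, was at 2.34, 2.23 and 2.23 in root DEX+CHX, against 2.39, 2.64 and 2.35 in root CHX, a change of -0.19 (SE 0.11, adjusted p = 1.00). Nearly all these signals of CLE21 and RALFL19 lay below the arrays' lower quartile. The 20 genes of this pathway list named here gave 0 calls in either root comparison of DEX.

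In sorted J0571 cells limma called 0 of the 41 genes with DEX, beside 0.0338% of all features. At an unadjusted p under 0.05 were 5 of the 41 genes, beside 2239 of the 38408 features. The groups did not overlap for 6 genes (14.6%), 2 higher and 4 lower, beside 11.8% of all features. CLE43 was the gene of smallest p. It had 5.06, 5.23 and 5.17 in J0571 DEX, against 4.06, 4.47 and 4.30 in J0571 control. All J0571 DEX arrays lay above all J0571 control arrays, and above the array median, which the control arrays did not reach. The change was 0.88 (SE 0.14, adjusted p = 0.403), and it passed when all 18 arrays were fitted together (adjusted p = 0.0286). In root tips CLE43 was at 2.71, 2.83 and 2.84 in root DEX, against 2.98, 3.03 and 2.40 in root MS, a change of -0.01 (SE 0.16). The difference between these responses was 0.89 (SE 0.21, adjusted p = 0.304) and, among the alternatives run, passed without root MS replicate 3 (1.09, adjusted p = 0.0390). In this test of J0571 DEX response minus root DEX response, limma called 0 of the 41 genes, beside 0.0521% of all features. At an unadjusted p under 0.05 were 5 of the 41 genes, beside 2397 of the 38408 features.

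IDL4 and CLE41 followed by p in the sorted cells. IDL4 had 3.79, 4.15 and 3.81 in J0571 DEX, against 4.54, 4.57 and 4.44 in J0571 control. Its J0571 DEX arrays lay below all J0571 control arrays, with a change of -0.60 (SE 0.14, adjusted p = 0.72). CLE41 had 5.27, 5.09 and 4.80 in J0571 DEX, against 5.54, 5.48 and 5.42 in J0571 control, also without overlap, and a change of -0.43 (SE 0.14, adjusted p = 0.791). CLE44 was at 3.49, 2.54 and 3.22 in J0571 DEX, against 2.71, 2.43 and 2.55 in J0571 control, and overlapped. Its change was 0.52 (SE 0.25). The stele marker PHV was at 5.13, 5.41 and 5.52 in J0571 DEX, against 5.90, 5.88 and 5.86 in J0571 control, a change of -0.53 (SE 0.13, adjusted p = 0.759). The mean of the 4 ground tissue markers was 8.29 to 8.43 in J0571 DEX, against 8.14 to 8.58 in J0571 control. Of these markers CO2 was at 3.21 to 3.34 in J0571 DEX, against 3.48 to 3.88 in J0571 control, without overlap. Its change was -0.49 (SE 0.14, adjusted p = 0.779), beside 0.12 for JKD, 0.15 for EN7 and 0.03 for AT1G09750. Whether the levels of these markers bear on IDL4 and CLE41 was not tested. Over the 41 genes the median change was 0.01, beside 0.00 over all features. The 20 genes of this pathway list gave 0 calls here too.

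**Figure D4:**
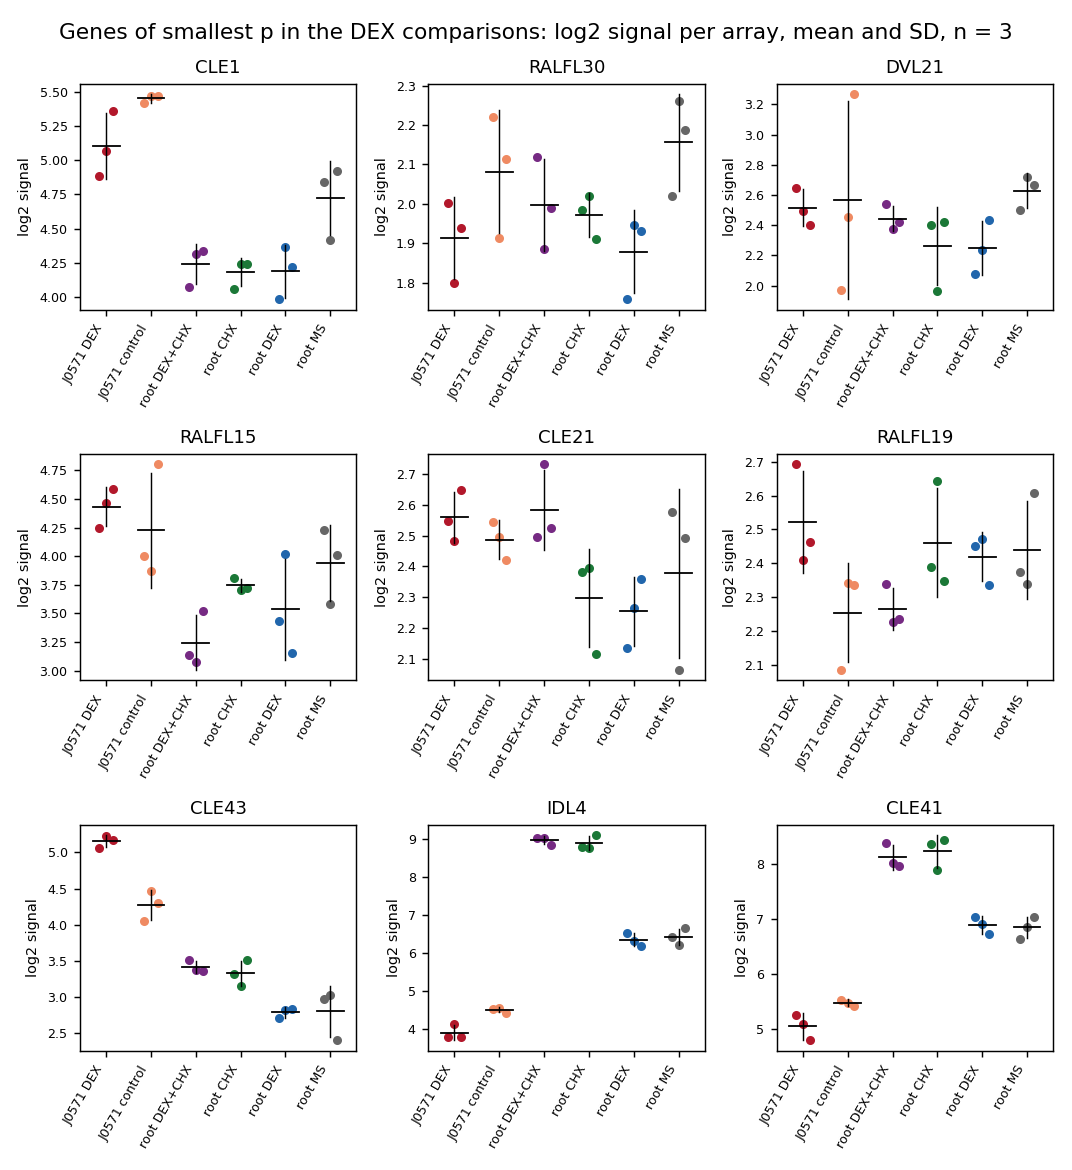
Log2 signal per array (points), mean and SD (n = 3) for the 3 genes of smallest p in each comparison of DEX, with a separate vertical scale for each gene. CLE43 is at 5.06 to 5.23 in J0571 DEX, against 4.06 to 4.47 in J0571 control, and 4 of the 6 genes leading the root tip comparisons lie below 3 on every root tip array.

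Sorted J0571 cells were also compared with whole root tips. Against root MS, J0571 control had 6 of the 41 genes higher and 10 lower, or 14.6% and 24.4%, beside 26.5% and 22.4% of all features and 30.2% and 19.1% of features named for exactly 1 gene. With array medians equal, which moved the median difference of all features by 0.24, the split was 10 higher and 7 lower. The share of all features called under that setting is not given here. These groups differ at once in the cells sampled (GFP-positive cells of roots, against all cells of root tips), in ecotype, in the driver of the construct, in time, and in having been protoplasted and sorted, which cannot be told apart. The early stress gene STZ was also higher in J0571 control, by 1.09 (SE 0.26, adjusted p = 0.00284), and its part in these differences was not tested. The root MS arrays are the same as in the comparison with root CHX.

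The TDIF genes were lower in the sorted cells. CLE44 had 2.71, 2.43 and 2.55 in J0571 control, against 5.0, 5.55 and 5.37 in root MS, a difference of -2.75 (SE 0.30, adjusted p = 1.95e-06). All its J0571 control arrays lay below the lower quartile of their array, so the 6.71-fold lower level may be understated. CLE41 had 5.54, 5.48 and 5.42 in J0571 control, against 6.65, 6.86 and 7.04 in root MS, and remained above the array median in the sorted cells, with a difference of -1.37 (SE 0.17, adjusted p = 6.68e-06). CLE42, the related gene, did not differ past the threshold (-0.27, SE 0.30, adjusted p = 0.49), with 4.38, 4.54 and 3.59 in J0571 control. CLE14 had 6.59, 6.61 and 6.58 in J0571 control, against 8.23, 7.90 and 7.58 in root MS, a difference of -1.31 (SE 0.14, adjusted p = 2.31e-06). CLE20 (-0.58, SE 0.18, adjusted p = 0.0154) and CLE26 (-0.62, SE 0.24, adjusted p = 0.0428) were lower too, and both calls were lost with array medians equal (adjusted p = 0.120 and 0.160), with quantile normalization again (0.111 and 0.0876), without root MS replicate 2 (0.0635 and 0.230) and without J0571 control replicate 1 (0.0811 and 0.0727). Without root MS replicate 2 the difference of CLE26 was -0.35. Its call was also lost without root MS replicate 1 (0.0881), J0571 control replicate 2 (0.101) or J0571 control replicate 3 (0.0766), and with the replicate block (0.0555). CLE20 had 3.80, 4.17 and 4.39 in J0571 control, against 4.70, 4.87 and 4.54 in root MS, and CLE26 had 3.08, 2.97 and 3.07 in J0571 control, against 3.69, 4.22 and 3.09 in root MS, where replicate 3 almost met the sorted cells. CLE25 was not called, at 5.74, 6.18 and 6.25 in J0571 control and a difference of -0.42 (SE 0.20, adjusted p = 0.102); it passed without root MS replicate 1 (-0.60, adjusted p = 0.0286).

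Other CLE genes were higher in the sorted cells. CLE43 had 4.06, 4.47 and 4.30 in J0571 control, against 2.98, 3.03 and 2.40 in root MS, a difference of 1.47 (SE 0.15, adjusted p = 1.14e-06). CLE16 had 7.18, 7.16 and 6.97 in J0571 control, against 5.68, 5.93 and 5.62 in root MS, a difference of 1.36 (SE 0.11, adjusted p = 1.05e-07). CLE40, which regulates stem cells at the root tip through ACR4 and CLV1, had 3.85, 3.37 and 3.73 in J0571 control, against 2.77, 2.33 and 2.51 in root MS. It was below the array median throughout, and the groups were apart by 1.12 (SE 0.15, adjusted p = 2.05e-05). CLE1 had 5.42, 5.47 and 5.47 in J0571 control, against 4.84, 4.42 and 4.92 in root MS, and differed by 0.73 (SE 0.15, adjusted p = 0.000789). CLE45, the ligand of BAM3 in protophloem, did not differ past the threshold (-0.40, SE 0.21, adjusted p = 0.132); without J0571 control replicate 2 it was lower (-0.65, adjusted p = 0.0125).

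Among the 18 RALFL genes 4 were lower and 1 higher in the sorted cells, beside 22.4% lower and 26.5% higher of all features. RALFL32 had 5.04, 5.78 and 6.08 in J0571 control, against 7.38, 7.52 and 7.49 in root MS, a difference of -1.83 (SE 0.20, adjusted p = 2.22e-06). Its J0571 control arrays differed among themselves by about 1 log2 unit, and all lay below the root MS arrays. RALFL27 had 4.26, 4.76 and 4.88 in J0571 control, against 6.30, 6.28 and 5.71 in root MS, and RALFL18 had 4.48, 4.48 and 4.92 in J0571 control, against 5.45, 5.63 and 5.70 in root MS. The differences were -1.46 (SE 0.23, adjusted p = 8.55e-05) and -0.97 (SE 0.21, adjusted p = 0.00119). RALFL31, at 7.10, 6.92 and 7.22 in J0571 control, against 7.44, 7.50 and 7.73 in root MS, was lower by a smaller amount (-0.48, SE 0.11, adjusted p = 0.00162), which was lost with array medians equal (adjusted p = 0.102). RALFL24 was the RALFL gene that was higher, with 3.02, 3.83 and 3.88 in J0571 control, against 2.73, 2.76 and 2.67 in root MS (0.86, SE 0.19, adjusted p = 0.00151), all below the array median. The IDL genes went in opposite directions. IDL4 had 4.54, 4.57 and 4.44 in J0571 control, against 6.43, 6.23 and 6.66 in root MS (-1.92, SE 0.14, adjusted p = 2.31e-08). IDL3 had 5.25, 5.15 and 5.46 in J0571 control, against 4.90, 4.63 and 4.66 in root MS (0.56, SE 0.17, adjusted p = 0.0128), a call lost without J0571 control replicate 3 (0.47, adjusted p = 0.0557). None of the 5 RTFL and DVL genes was called, with RTFL7 at -0.51 (SE 0.24). The 25 genes not called had differences from -0.51 to 0.38, among them CLE22, which passed without J0571 control replicate 1 (0.54, adjusted p = 0.0365). With array medians equal CLE22 (0.0140), CLE18 (0.00767), CLE21 (0.0444) and RALFL34 (0.0447) passed as higher.

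**Figure D5:**
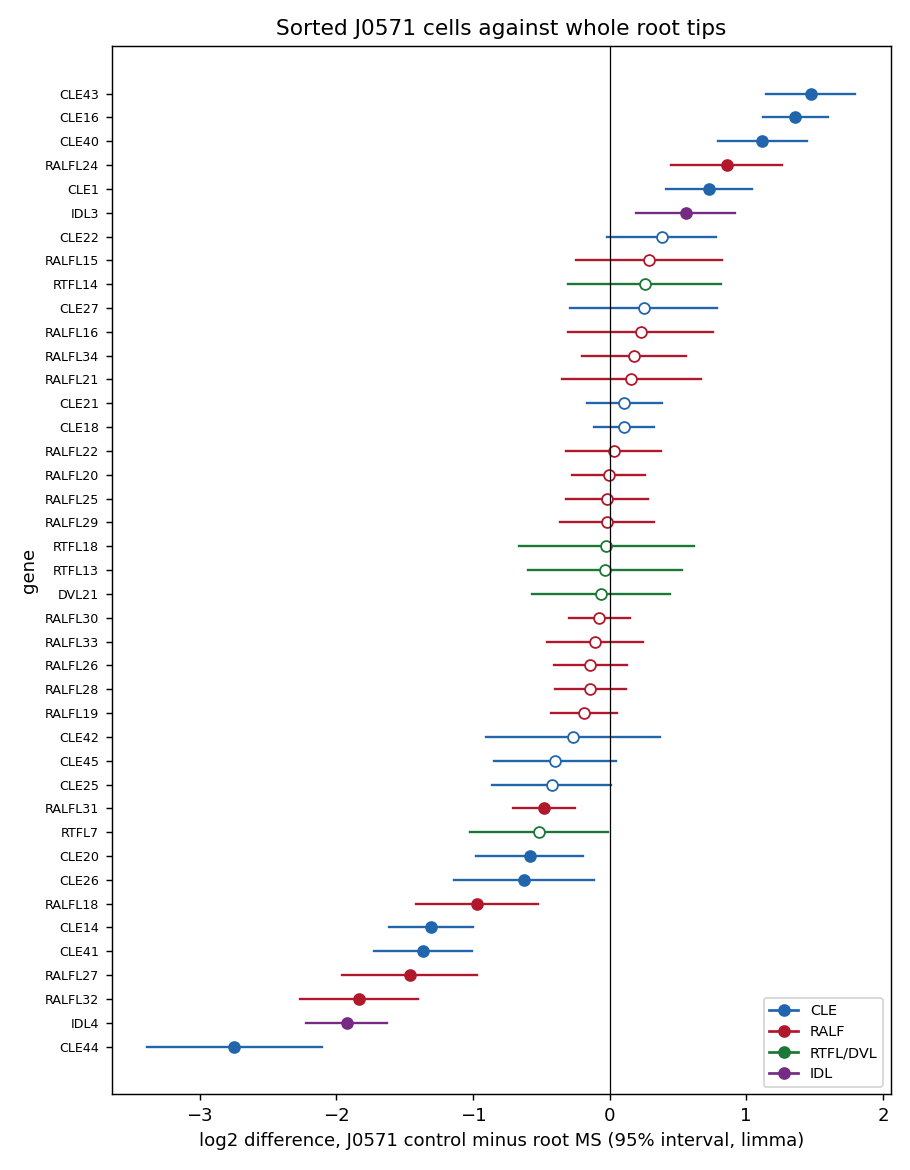
Log2 difference of J0571 control minus root MS for the 41 genes, ordered by size, with 95% intervals from limma (colour gives the family, filled circles passed the adjusted threshold). CLE44, IDL4 and RALFL32 are the lowest, CLE43, CLE16 and CLE40 the highest, and the RTFL and DVL genes have open circles, with RTFL7 the lowest of them at -0.51.

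Of the 20 genes of this pathway list, 9 were higher and 3 lower in J0571 control than in root MS. Over all features 26.5% were called higher and 22.4% lower, and among features named for exactly 1 gene 30.2% and 19.1%. THE1 had 8.74, 8.88 and 9.16 in J0571 control, against 7.56, 7.36 and 7.50 in root MS, a difference of 1.45 (SE 0.13, adjusted p = 2.29e-07). PXL1 (1.03, SE 0.13), PXL2 (1.10, SE 0.13) and the coreceptor CIK4 (1.43, SE 0.19) were higher, while the coreceptor CIK2 was lower (-1.08, SE 0.16). FER, the receptor of several RALF peptides, was lower by a small amount (-0.38, SE 0.08, adjusted p = 0.000912), and PSY1R by more (-1.45, SE 0.16, adjusted p = 2.74e-06). Of the 4 RGF receptors named here AT5G48940, AT3G24240 and AT1G34110 were higher, by 0.54 (SE 0.09), 0.65 (SE 0.14) and 0.34 (SE 0.12). RITF1 was higher by 1.12 (SE 0.14, adjusted p = 1.08e-05).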

How the data were processed

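RNA from 18 samples was hybridised to Affymetrix arrays after whole-transcript cDNA synthesis and biotin labelling, per the labels' protocols. The deposited values are log2 signals that the authors made with RMA, per the submitters' processing notes. The sources used here give neither the RMA version nor whether the arrays were normalized as 1 set. All 38408 features were tested on the values as deposited with limma 3.58.1 in R 4.3.3, with 1 mean per group and eBayes. Its two-sided p-values were adjusted by Benjamini-Hochberg across the whole array, and a feature was called at an adjusted p under 0.05. The model for root tips held all 4 groups, that for sorted cells both J0571 groups, and comparisons between the experiments used all 18 arrays. Alternatives were quantile normalization again, equal array medians, filters on features, trend and robust options, array weights, a replicate block, other sets of arrays in the fit and leaving out each array. The procedure was tested on simulated data. Figures were drawn with matplotlib 3.10.9.

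Of the 41 genes, 25 were linked to TAIR10.1 by gene identifier and 16 by symbol. Given with values per array are genes past the threshold, the gene of highest mean in each family and the 3 of smallest p in each comparison of DEX. Others were chosen after their values were seen: CLE42, CLE45, RTFL14, RTFL18, RALFL34 and further values of named genes. Members and lists were chosen with earlier results of these data known. No label says that the repeats came from separate cultures, so p-values measure only the spread among these samples, which may be technical. Their number limits the precision. No sequence is shown.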

Additional observations from a re-analysis of the deposited data

How the results depend on the processing

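Counts of called genes were recomputed under 8 or 9 other settings and without each array of the comparison in turn. In root CHX against root MS 14 genes were called; the other settings gave 10 to 16, and leaving out 1 array gave 9 to 12, with 9, all higher, without root MS replicate 3. In root DEX+CHX against root DEX 13 were called, with 11 to 19 and 11 to 15. For J0571 control against root MS 16 were called, with 14 to 16 without 1 array; with only features above the median feature, which kept 14 of the 41 genes in that fit, 10 were called (2 higher, 8 lower), since fewer genes were tested. In the sorted cells with DEX 0 became 1 (CLE43) with all 18 arrays in the fit, where 68 features passed in place of 13, and the difference of the DEX responses gave 0 to 1 without 1 array. Both comparisons of DEX in root tips and the interaction gave 0 called genes under every setting run. Of 744 recomputed values for 52 gene results, 685 kept direction and side of the threshold, 58 kept direction but lost the call, 1 gained it and 0 turned. The rises of CLE14, CLE16, CLE25, CLE41, CLE44, IDL4, RALFL33 and RTFL7 passed in both cycloheximide comparisons under every setting run. With the replicate number as a block 12, 12 and 15 genes were called in the 3 comparisons with calls, and 0 in the others. Except for the 68 features above, the number of all features called under each setting is not given here. The counts of called genes under the other settings therefore have no background beside them. Correlations of same-numbered deviations ran from -0.24 to 0.20 in root tips and from 0.02 to 0.25 in J0571 cells. The array of the same number was the best match for 4 of 18 pairs in root tips and 2 of 3 in J0571 cells. With so few arrays these values cannot settle whether equal numbers pair the samples. A choice between probe sets of a gene was not run, since each gene has 1. Low signals limit what can be seen for the 19 genes that never exceeded the array median.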
